A study of Homo sapiens with 6 samples.

Results

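The sirtuins are the NAD-dependent protein deacylases SIRT1 to SIRT7. The 7 gene symbols were taken from the deposited A549 count table, which lists 23180 symbols, and each gene was followed through 1 transcript, the one whose counts added up to the most across the 6 samples. All 7 were among the 13877 genes with enough counts to be tested.

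A549 is a human lung carcinoma cell line. The cells carried the genotype WT and were at passage 11 in every sample. RNA-Seq of total RNA compared 3 samples that received a control siRNA (siControl) with 3 that received an siRNA against KMT9a (siKMT9a, the study's siKMT9α#1), and the study harvested RNA 3 days after transfection. KMT9a is the catalytic subunit of the histone methyltransferase KMT9 and is encoded by N6AMT1. A single siRNA sequence was used, and the labels call the samples biological replicates without saying how the cultures were kept apart, so the p-values measure the spread between these samples.

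Sirtuins remove acetyl and other acyl groups from lysine and split NAD in each reaction, so that they draw on the same NAD pool as the PARP enzymes and CD38. SIRT1, SIRT6 and SIRT7 are mainly nuclear, SIRT2 is mainly cytosolic, and SIRT3, SIRT4 and SIRT5 are mitochondrial. SIRT1 deacetylates FOXO and other transcription factors, SIRT6 and SIRT7 act on histone H3, SIRT2 acts on tubulin and mitotic proteins, and SIRT5 removes succinyl, malonyl and glutaryl groups from metabolic enzymes.

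Samples held 13740097 to 19832395.5 counts with 1 transcript per symbol. N6AMT1 had 10.2, 10.9 and 11.4 CPM (counts scaled to a common library size) with siControl and 2.87, 3.22 and 3.35 CPM with siKMT9a, a log2 fold change of -1.77 (SE 0.12). TRMT112, which encodes the other KMT9 subunit, changed by -0.38 on the log2 scale (SE 0.07), and by -0.13 with a correction for the GC content and length of the transcripts. The summed level of the epithelial markers KRT7, KRT8, KRT18, KRT19 and EPCAM was 4398 to 4882 CPM with siControl and 2933 to 3122 CPM with siKMT9a, although EPCAM was at most 4.25 CPM in any sample. These markers did not move alike, since KRT7 had mean levels of 1260 and 1269 CPM, KRT8 of 1281 and 528 CPM, and EPCAM of 3.85 and 0.57 CPM with siControl and siKMT9a. Of 4 leukocyte markers, 3 were under 1 CPM in every sample and CD3E was at 0, with a sum of 3.22 to 3.77 CPM with siControl and 1.66 to 2.30 CPM with siKMT9a. The 3 endothelial markers were all under 1 CPM, with a sum of 0.47 to 0.80 CPM with siControl and 0.08 to 0.16 CPM with siKMT9a. The 4 fibroblast markers summed to 4.32 to 4.94 and 3.07 to 3.61 CPM. The part of these differences in the sirtuin values was not tested. In bulk RNA a change in the number of cells of one state and a change in RNA per cell cannot be told apart.

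The sequence of the siRNA is shown with a matching stretch in the 3′ UTR of SIRT5, because an siRNA can pair with other mRNAs through its seed, bases 2 to 8 of the guide strand. The siRNA site lies in the coding part of exon 3 of N6AMT1 on the minus strand (GRCh37 chr21:30254500-30254524). The SIRT5 stretch lies in exon 11, the last exon of the annotated transcript SIRT5-204, on the plus strand (GRCh37 chr6:13612264-13612292), from base 178 of its 3293-base 3′ UTR on for the matching letters. Capitals mark the 7 bases complementary to the seed.
siKMT9a target in N6AMT1: acgctgtaacaaagttcACATTCAa
SIRT5 3′ UTR: aaagagcacccACATTCAaaagtcacaga

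Of the 7 sirtuins, only SIRT5 held this 7-base match in its annotated 3′ UTR, in 1 copy. The base before the match was a C and the base after it an A, both as in the target. Among all tested genes with an annotated 3′ UTR, 1489 of 12818 (11.6%) held at least 1 copy of the 7-base match. Their median log2 fold change was -0.21, and that of the genes without a copy was 0.00. Of the 1260 genes with exactly 1 copy, 129 (10.2%) had a log2 fold change at or below that of SIRT5. Of all tested genes, 5.73% did. These comparisons were not matched for 3′ UTR length or repeated with a GC and length correction. The 3′ UTR of SIRT5 was the longest of the 7, at 3293 bases against 213 to 1797 bases. The part of the match in the level of SIRT5 was not tested.

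The RefSeq promoter of SIRT1 is printed because SIRT1 was the sirtuin called higher under every scaling tried. It covers 250 bases before and 50 bases after the start of the gene on the plus strand (GRCh38.p14 chr10:67884406-67884705), and capitals mark the E-boxes (CACGTG) and GC boxes (GGGCGG or its reverse complement CCGCCC).
SIRT1 promoter: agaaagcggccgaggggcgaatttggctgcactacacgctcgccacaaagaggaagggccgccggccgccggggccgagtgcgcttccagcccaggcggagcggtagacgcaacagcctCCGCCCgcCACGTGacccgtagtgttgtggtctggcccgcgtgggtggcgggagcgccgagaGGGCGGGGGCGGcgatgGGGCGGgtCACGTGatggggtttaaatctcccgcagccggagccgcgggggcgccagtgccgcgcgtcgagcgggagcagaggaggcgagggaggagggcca

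This window held 2 E-boxes and 4 GC boxes, and its GC content was 72.7%, against a median of 58.7% over the 35116 RefSeq promoters of the same length. An E-box of these letters was present in 7.26% of those promoters on either strand, and a GC box in 45.0%. RefSeq promoters were found for 6 of the 7 sirtuins. None of the promoters of the other 5 held an E-box of these letters. GC boxes were found in the promoters of SIRT3, SIRT5 and SIRT6 and not in those of SIRT2 and SIRT4.

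With siKMT9a, SIRT1 rose by 0.81 on the log2 scale and SIRT5 fell by 1.36. At an adjusted p under 0.05, 1 sirtuin was higher (SIRT1) and 4 were lower (SIRT2, SIRT4, SIRT5 and SIRT6), while SIRT3 and SIRT7 did not pass. Of all genes tested, 37.1% were called higher and 38.5% lower by the same rule, so that a call of either kind was common in this experiment. At the study's own threshold, a p under 1e-08 with an absolute log2 fold change above 0.26, SIRT1 was called higher and SIRT5 lower, against 13.5% and 10.7% of all genes. The p-values are from the fit used here, so these calls and shares are not those of the study. The 3 siKMT9a samples lay wholly above or wholly below the 3 siControl samples for 6 of the 7 sirtuins, against 77% of all genes. For the 7 sirtuins the middle log2 fold change was -0.26, and for all genes the median was -0.01. With the GC and length correction these medians were 0.07 and 0.02, so that of the sirtuins turned.

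SIRT1, the nuclear deacetylase of many transcription factors, is listed as NM_012238 on chromosome 10 of hg19 (plus strand, 69644427 to 69678147). Its levels were 79.0, 75.7 and 74.2 CPM with siControl and 132.9, 141.7 and 126.9 CPM with siKMT9a. Every siKMT9a sample lay above every siControl sample. The log2 fold change was 0.81 (SE 0.05, 95% interval 0.70 to 0.92, adjusted p = 4.45e-11 by the quasi-likelihood test of edgeR), a 1.75-fold higher level. Of all genes tested, 1892 (13.6%) rose at least as much.

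SIRT6, a nuclear deacetylase of histone H3, is encoded on chromosome 19 (NM_016539, minus strand, 4174106 to 4182596). It had 23.4, 24.7 and 24.4 CPM with siControl and 23.0, 19.3 and 18.8 CPM with siKMT9a. The first siKMT9a sample lay just below the siControl samples and the other two lay further below. The log2 fold change was -0.26 (SE 0.08, 95% interval -0.42 to -0.09, adjusted p = 0.00754). It was 0.07 (adjusted p = 0.415) once each sample was corrected for the GC content and length of the transcripts, so the call was lost and the sign turned.

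SIRT7, a nuclear deacylase linked to ribosomal RNA synthesis, is encoded on chromosome 17 (NM_016538, minus strand, 79869815 to 79876058). Its levels were 31.2, 34.1 and 31.7 CPM with siControl and 30.4, 30.7 and 26.9 CPM with siKMT9a. The groups did not overlap, but their gap was small beside the spread within siKMT9a. The log2 fold change was -0.15 (SE 0.07, 95% interval -0.29 to -0.00, adjusted p = 0.0627). With the GC and length correction it was 0.15 (adjusted p = 0.0326), in the opposite direction.

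SIRT2, which deacetylates tubulin and proteins of the mitotic checkpoint, is encoded on chromosome 19 (NM_012237, minus strand, 39369195 to 39390463). It had 65.4, 73.3 and 72.7 CPM with siControl and 57.0, 56.6 and 52.1 CPM with siKMT9a. All siKMT9a samples were lower. SIRT2 changed by -0.35 on the log2 scale (SE 0.06, 95% interval -0.48 to -0.23, adjusted p = 2.29e-05). With the GC and length correction it was -0.12 (adjusted p = 0.0314). The span of SIRT2 from start to end overlaps that of NFKBIB on the opposite strand by up to 124 bases. Reads from there cannot be told apart if the counting did not use strand.

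SIRT5, the mitochondrial desuccinylase, is encoded on chromosome 6 (NM_012241, plus strand, 13574859 to 13615390). Its levels were 12.7, 14.9 and 13.4 CPM with siControl and 5.44, 5.70 and 4.92 CPM with siKMT9a. Even the lowest siControl sample was more than 2-fold above the highest siKMT9a sample. The log2 fold change was -1.36 (SE 0.11, 95% interval -1.59 to -1.13, adjusted p = 1.44e-09), a 2.57-fold lower level, and 795 genes (5.73% of those tested) fell at least as much.

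SIRT4, a mitochondrial enzyme that acts on glutamate and leucine metabolism, had the lowest CPM of the 7 in every sample (NM_012240, chromosome 12, plus strand, 120740124 to 120751045). It had 2.02, 2.28 and 2.18 CPM with siControl and 1.21, 1.75 and 1.10 CPM with siKMT9a, which rest on 15.5 to 41.5 counts a sample. All siKMT9a samples were lower. SIRT4 changed on the log2 scale by -0.70 (SE 0.22, 95% interval -1.16 to -0.24, adjusted p = 0.0078). Without siKMT9a replicate 3 it was -0.53 (adjusted p = 0.0611), and DESeq2 gave -0.68 (adjusted p = 0.0505), both over the threshold of 0.05.

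SIRT3, the main mitochondrial deacetylase, is encoded on chromosome 11 (NM_012239, minus strand, 215030 to 236362). Its levels were 11.9, 13.0 and 11.1 CPM with siControl and 14.7, 12.4 and 12.4 CPM with siKMT9a. The groups overlapped. SIRT3 had a log2 fold change of 0.13 (SE 0.10, 95% interval -0.07 to 0.34, adjusted p = 0.225), and with the GC and length correction it was 0.27 (adjusted p = 0.0113). Its span from start to end overlaps that of RIC8A on the opposite strand by up to 81 bases.

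With that correction, 3 sirtuins were called higher (SIRT1, SIRT3 and SIRT7) and 3 lower (SIRT2, SIRT4 and SIRT5), against 39.5% higher and 37.1% lower of all genes. The GC content of the counted transcripts was 40.6% for SIRT1, 48.0% for SIRT5, 51.3% for SIRT4, 54.8% for SIRT3, 58.7% for SIRT2, 61.7% for SIRT7 and 64.9% for SIRT6. Genes within 2 percentage points of SIRT6 had a median log2 fold change of -0.10 before the correction and 0.11 after it, so that the correction moved such genes past 0. By a robust version of the correction, added after the data were seen, that median was 0.06, and SIRT6 stood at 0.02 (adjusted p = 0.829) and SIRT7 at 0.12 (adjusted p = 0.0884). That version called SIRT1 and SIRT3 higher (2 of 7) and SIRT2, SIRT4 and SIRT5 lower (3 of 7), against 38.5% and 38.1% of all genes. Scaling by the library size alone moved the median of all genes to -0.12, and SIRT7 then had a log2 fold change of -0.25 (adjusted p = 0.00316). By that scaling 1 sirtuin was called higher and 5 lower, against 31.4% and 44.8% of all genes. SIRT1 was called higher and SIRT5 lower under each of these scalings.

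**Figure D1:**
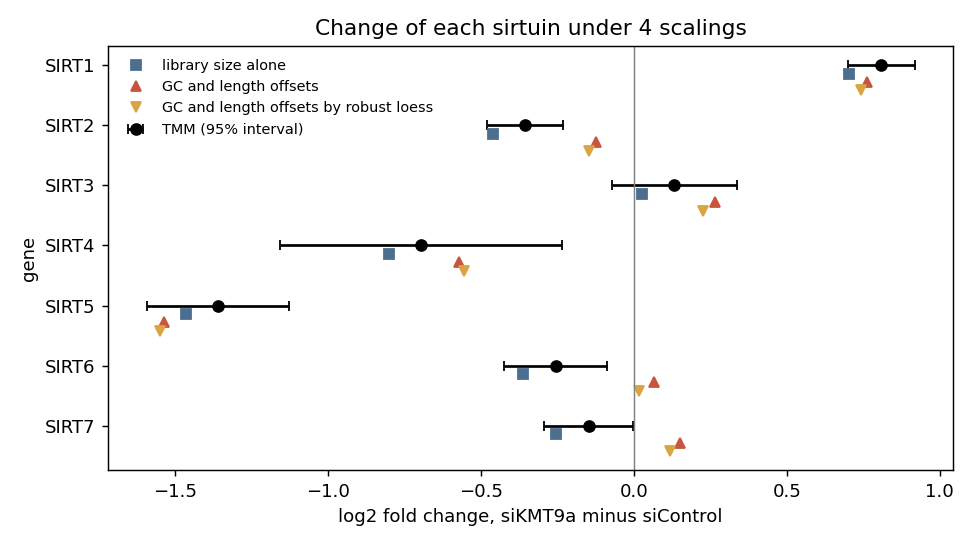
Log2 fold change of each sirtuin (x axis, siKMT9a minus siControl) for the 7 genes (y axis). Circles with bars are the estimate and 95% interval after TMM scaling, and the other symbols are the estimates by library size alone and by both versions of the GC and length offsets. SIRT1 (0.81) and SIRT5 (-1.36) stay on their side of 0 under all of them, whereas SIRT6 and SIRT7 cross it.

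On a scale of CPM per kb of transcript, which allows levels of different genes to be compared, SIRT2 was highest in siControl at 34.5 ± 2.15 (SD, n = 3). SIRT7 followed at 18.9 ± 0.92 CPM per kb and SIRT1 at 18.7 ± 0.59, and the ranges of these neighbours overlapped. SIRT6 stood at 14.9 ± 0.42 CPM per kb. The mitochondrial members were lower, with SIRT3 at 4.15 ± 0.32, SIRT5 at 3.03 ± 0.25 and SIRT4 at 1.80 ± 0.11 CPM per kb. SIRT2 was thus above 82.0% of the genes tested and SIRT4 above 22.6%.

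In siKMT9a the order changed. SIRT1 was highest at 32.8 ± 1.83 CPM per kb (SD, n = 3), above SIRT2 at 27.1 ± 1.33, with no overlap between their samples. These levels were not computed with the GC and length correction, by which SIRT1 changed by 0.76 and SIRT2 by -0.12 on the log2 scale. Whether SIRT1 stays above SIRT2 with that correction was not tested. SIRT7 (17.1 ± 1.23), SIRT6 (12.6 ± 1.40) and SIRT3 (4.56 ± 0.44 CPM per kb) followed without overlap. SIRT5 at 1.18 ± 0.09 and SIRT4 at 1.13 ± 0.29 CPM per kb overlapped. SIRT5 thus moved from above 30.9% of the tested genes in siControl to above 17.6% in siKMT9a.

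**Figure D2:**
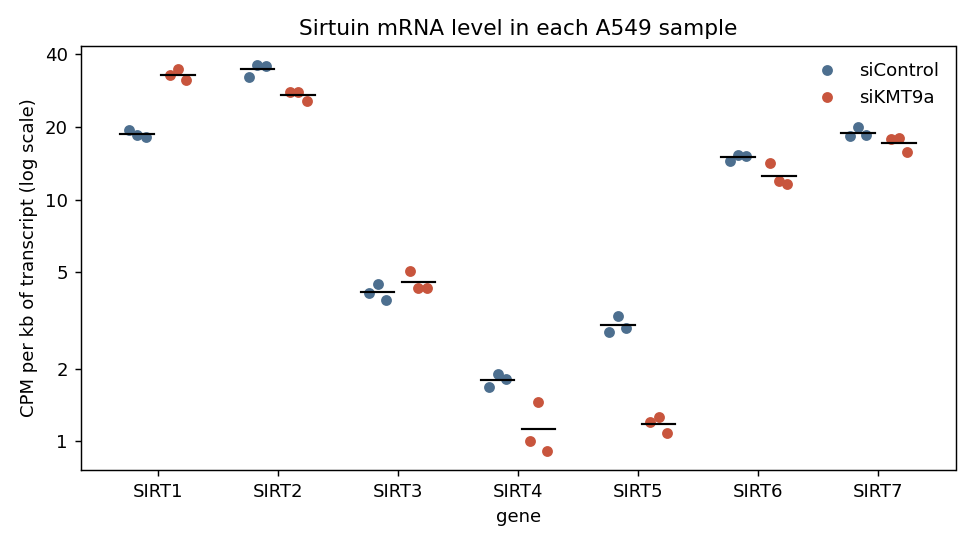
Level of the 7 sirtuins (x axis) in CPM per kb of transcript on a log scale (y axis). Each point is 1 of 3 samples per group and each line is the group's mean. SIRT1 moves from 18.7 to 32.8 and SIRT5 from 3.03 to 1.18 CPM per kb, and the SIRT3 samples of the groups overlap.

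The summed sirtuin level was 96.0 ± 3.32 CPM per kb with siControl and 96.4 ± 5.35 with siKMT9a (SD, n = 3), a difference smaller than the spread within either group. By library size alone it was 99.6 ± 3.86 and 93.0 ± 5.11 CPM per kb, with overlapping samples, so the comparison of the sums depended on the scaling. The shares of the sum do not depend on the factor that scales one library to another, but they were not computed with the GC and length correction. None of the 7 differences in share passed its test. The share of SIRT1 was 20.9%, 18.7% and 19.0% in siControl and 32.7%, 35.0% and 34.5% in siKMT9a. The share of SIRT2 was 35.9 ± 1.27% in siControl and 28.1 ± 0.19% in siKMT9a (SD, n = 3). For SIRT5 it was 3.15 ± 0.16% and 1.22 ± 0.03%. The groups did not overlap for these 3 genes, nor for SIRT4 (1.86% against 1.15%), SIRT6 (15.5% against 13.0%) and SIRT7 (19.7% against 17.7%). Each of these 6 had p = 0.1 in a two-sided exact permutation test, the smallest p that 3 against 3 samples can give, and 0.117 after adjustment over the 7 shares. The share of SIRT3 was 4.32 ± 0.28% and 4.74 ± 0.38% (exact permutation p = 0.3).

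**Figure D3:**
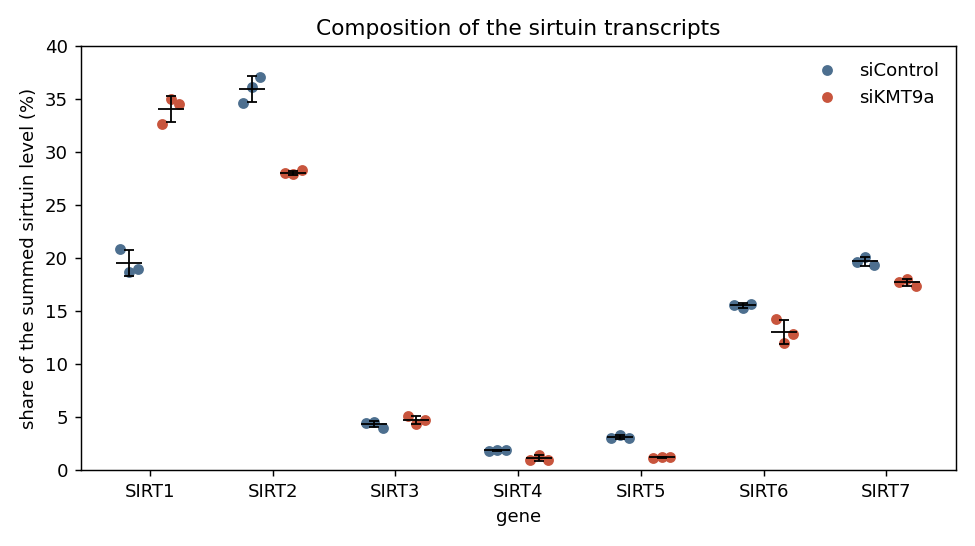
Share of each sirtuin (x axis) in the summed level of the 7, in percent of CPM per kb (y axis). Points are the 3 samples of each group, and lines with bars are the mean and SD. The mean share of SIRT1 is 19.5% in siControl and 34.1% in siKMT9a, and that of SIRT2 is 35.9% and 28.1%.

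The table lists several transcripts for 5 of the genes, and transcripts of one gene share most exons and so most reads. The 2 SIRT1 transcripts (NM_012238 and NM_001142498) both had a log2 fold change of 0.81. The 4 SIRT2 transcripts (NM_012237, NM_030593, NR_034146 and NM_001193286) ranged from -0.36 to -0.35. Those of SIRT3 (NM_012239 and NM_001017524) both had 0.13, and those of SIRT6 were at -0.26 (NM_016539) and -0.23 (NM_001193285).

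SIRT5 had transcripts with different 3′ ends. NM_012241, NM_001193267 and NM_001242827 end at 13615390, and their annotated counterparts hold the seed match. NM_031244 ends at 13605970 and its counterpart holds none. The log2 fold changes were -1.36, -1.36, -1.34 and -1.37 in that order. The counts of NM_031244 were 53.2 ± 2.17% of those of NM_012241 in siControl and 52.7 ± 7.20% in siKMT9a (SD, n = 3, two-sided exact permutation p = 1.0). Much of either count comes from exons that both transcripts share.

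The genes whose profile over the 6 samples lay nearest to that of SIRT5, among 3305 genes of similar abundance, were BOK, FBXO32 and IQSEC2. Their log2 fold changes were -1.27, -1.34 and -1.28, and their Euclidean distances to SIRT5 in log2 CPM were 0.10, 0.11 and 0.11. For SIRT1, the nearest of 3482 genes were SNX3, TGIF1 and CLNS1A, at distances of 0.05, 0.07 and 0.08. Their log2 fold changes were 0.81, 0.82 and 0.80. With 6 samples in 2 groups these distances describe little more than the size of the change.

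Genes that work with or beside the sirtuins were followed as fixed lists, whose counts stand against the 37.1% of all genes called higher and 38.5% called lower. By library size alone these shares of all genes were 31.4% and 44.8%, with a median log2 fold change of -0.12. With the GC and length correction they were 39.5% and 37.1%, with a median of 0.02. For NAD synthesis and salvage, 17 of 21 listed genes were tested, of which 9 were higher, 6 lower and 2 not called, with a median log2 fold change of 0.16. By library size alone 6 were higher and 6 lower (median 0.05). NAMPT, the rate-limiting enzyme of NAD salvage from nicotinamide, had 297.4, 278.6 and 279.8 CPM with siControl and 175.8, 180.9 and 188.6 CPM with siKMT9a. It was lower in every siKMT9a sample, by -0.65 on the log2 scale (SE 0.05, adjusted p = 3.78e-10). KMO, an enzyme of the kynurenine route to NAD, rose by 1.87 on the log2 scale, and PNP, a purine nucleoside phosphorylase, rose by 1.83. NMNAT2, a cytoplasmic enzyme of NAD synthesis, had a log2 fold change of -1.68 at 0.73 to 3.33 CPM, and NADK2, the mitochondrial NAD kinase, had -1.26.

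Among the other NAD consumers, 19 of 20 were tested, and 6 were higher, 6 lower and 7 not called (median log2 fold change -0.07). This split depended on the scaling. By library size alone 5 were higher and 10 lower (median -0.18), where 31.4% and 44.8% of all genes were. With the GC and length correction 7 were higher and 9 lower (median -0.21), against 39.5% and 37.1% of all genes. PARP1, the main poly(ADP-ribose) polymerase, had 136.2 ± 3.34 CPM with siControl and 144.3 ± 3.09 CPM with siKMT9a (SD, n = 3). Its log2 fold change of 0.08 did not pass the test (SE 0.05, adjusted p = 0.117), and it was -0.02 by library size alone and -0.00 with the GC and length correction. BST1, a CD38-related cyclase, rose by 2.47 and TIPARP, a mono-ADP-ribosyltransferase, by 1.54 on the log2 scale. PARP9 and TNKS fell by 0.51 and 0.50, and TNKS fell by 0.86 with the GC and length correction.

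The 11 zinc-dependent histone deacetylases, which remove acetyl groups without NAD, were all tested, and 5 were higher, 4 lower and 2 not called (median log2 fold change 0.03, and -0.07 by library size alone). HDAC4 rose by 0.99 and HDAC2 by 0.65 on the log2 scale, whereas HDAC11 fell by 1.12 and HDAC6, a tubulin deacetylase like SIRT2, fell by 1.01. Of the 11 lysine acetyltransferases, which add the group that deacetylases remove, 6 were higher, 2 lower and 3 not called (median 0.36). KAT6A rose by 1.51 and KAT2B by 0.84, and ATAT1, which acetylates tubulin, fell by 0.70 and KAT2A by 0.44, or by 0.29 with the GC and length correction. Each gene named here was called in the same direction by library size alone and with the GC and length correction. The acetyltransferase median was 0.25 by library size alone and 0.22 with the correction. KAT6B, called higher at 0.36, was at 0.02 with the correction and was no longer called.

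Of 10 listed sirtuin regulators, 3 were higher, 3 lower and 4 not called (median log2 fold change -0.02). CCAR2, a protein inhibitor of SIRT1, had 121.6 ± 7.18 CPM with siControl and 116.6 ± 2.31 CPM with siKMT9a (SD, n = 3). Its log2 fold change was -0.06 (SE 0.05, adjusted p = 0.282), and -0.17 (adjusted p = 0.00626) by library size alone. HIC1, a transcriptional repressor of SIRT1, was low at 0.94 to 1.56 CPM over all samples, with a log2 fold change of -0.26 (SE 0.25, adjusted p = 0.369). E2F1, a transcription factor that can activate SIRT1, rose by 1.34, and SENP1, a SUMO protease, by 0.97 on the log2 scale. CLOCK and CREB1 fell by 0.68 and 0.27, and CREB1 fell by 0.58 with the GC and length correction.

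Of the nuclear and cytosolic substrates, 20 of 21 were tested, and 10 were higher, 5 lower and 5 not called (median log2 fold change 0.13). By library size alone 8 were higher and 5 lower (median 0.02). With the GC and length correction 10 were higher and 4 lower (median 0.05). BUB1B and CDC20, which are mitotic checkpoint genes, rose by 2.52 and 2.25. FOXO1, a SIRT1 substrate, fell by 1.53, and ACSS2, a cytosolic acetyl-CoA synthetase, fell by 0.94.

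Of the mitochondrial substrates, 14 of 16 were tested, and 5 were higher, 7 lower and 2 not called (median log2 fold change -0.05, and 0.02 with the GC and length correction). By library size alone 3 were higher and 7 lower. IDH2, a SIRT3 substrate of the citric acid cycle, had 25.9, 26.9 and 29.1 CPM with siControl and 8.01, 8.04 and 7.90 CPM with siKMT9a. It fell by 1.78 on the log2 scale (SE 0.09, adjusted p = 5.59e-13), with no overlap between groups. ACADL, a fatty acid dehydrogenase, fell by 1.69 at 0.15 to 1.49 CPM. SOD2, the mitochondrial superoxide dismutase, rose by 0.74, and CPS1, the urea cycle enzyme that SIRT5 activates, rose by 0.56, or by 0.32 with the GC and length correction.

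**Figure D4:**
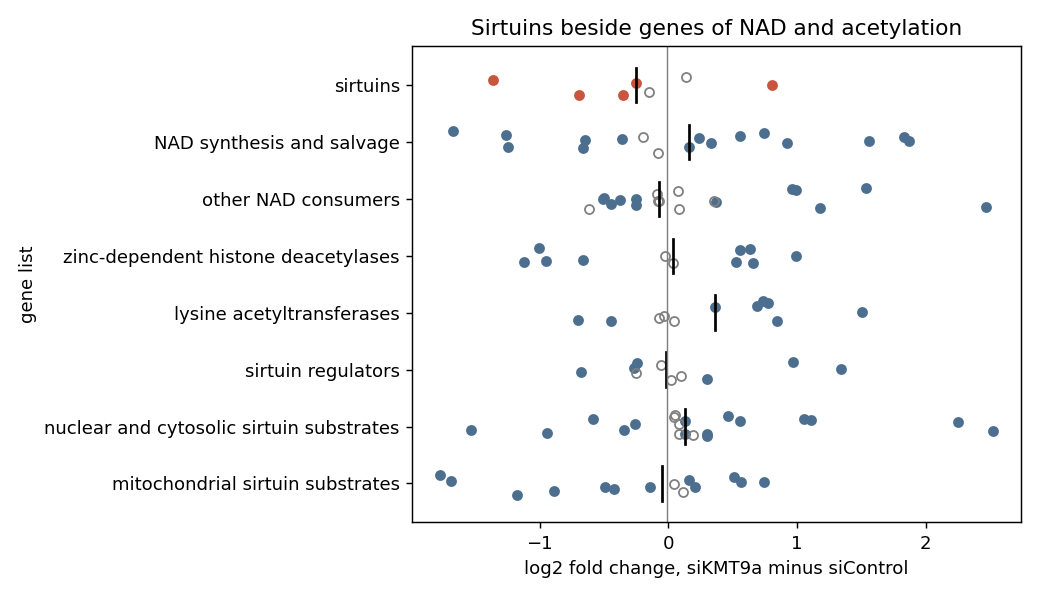
Log2 fold change (x axis, siKMT9a minus siControl) of each tested gene in the sirtuin group and the 7 fixed lists (y axis). Filled points have an adjusted p under 0.05, open points do not, red marks the sirtuins, black lines are list medians and the grey line is the median of all genes (-0.01). Values are after TMM scaling, by which each list holds genes on both sides of 0 and the sirtuin median is -0.26. With the GC and length correction that median is 0.07.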

How the data were processed

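RNA-Seq of 6 A549 samples was used. The authors aligned reads to hg19 with STAR version 2.5, counted them per RefSeq transcript with HOMER and deposited estimated counts that are not normalized. The strand setting and library type are not given in the sources used here. The table has 38767 rows, of which 1182 without symbol and counts were left out, and 36.4% of the values were not whole. The authors' own linear fold changes, p-values and adjusted p-values were not used.

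Counts were rounded and fitted over all genes with edgeR 4.0.16 in R 4.3.3 (TMM, filterByExpr, two-sided quasi-likelihood test, Benjamini-Hochberg adjustment over 13877 genes). CPM values use TMM library sizes, and the biological coefficient of variation was 4.47%. The GC and length offsets were fitted by loess for each sample, with GC content known for 98.4% of tested genes from a GRCh37 annotation. That annotation also gave 3′ UTRs, exons and strands. The fit was checked on simulated counts with a log2 change of 1 in 198 of 13748 tested genes. Of these, 191 were recovered and 0 were called in the wrong direction, and 10 unchanged genes were called. The simulated counts held few changed genes and no GC effect, so this check could not judge the scalings. Alternatives were other edgeR tests, DESeq2 1.42.0, other scalings and count filters, every transcript, a replicate block and each sample left out.

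Chi-square per gene was 1.34 to 5.00 between replicates and 100.1 to 132.6 between groups. Between replicates it was 1.34 for siKMT9a 1 and 2 and 1.76 for siControl 2 and 3. Pairs with siControl 1 or siKMT9a 3 had 3.84 to 5.00, so these samples lay further from the others of their group. The members and lists were chosen with earlier results of these data known. The genes named from each list are the 2 largest positive and 2 largest negative log2 fold changes with an adjusted p under 0.05, and always NAMPT, PARP1, CCAR2, HIC1 and SOD2. A result that this rule also covers is not reported here. Nearest profiles were sought within 1 log2 unit of mean CPM, on log2(CPM + 0.5) centred on the siControl mean.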

Additional observations from a re-analysis of the deposited data

How the results depend on the processing

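SIRT1 and SIRT5 kept their direction and their side of both thresholds under all 18 alternatives, with log2 fold changes of 0.70 to 0.85 and -1.55 to -1.29. SIRT2 also kept its call, between -0.46 and -0.12. With GC and length offsets, SIRT3 was 0.27 and passed (adjusted p = 0.0113), SIRT6 turned to 0.067, SIRT7 turned to 0.15, and 3 sirtuins were called higher. With the replicate block and the offsets together these values were 0.27, 0.069, 0.15 and 3. With the robust offsets, added after the data were seen, they were 0.23, 0.018, 0.12 and 2. SIRT4 did not pass by DESeq2 (-0.68). SIRT7 passed by library size alone (-0.25) and with at least 10 counts in every sample (-0.16). The SIRT3 share difference was 0.42 percentage points and turned to -0.076 without length scaling. With single samples left out, the log2 fold change was 0.77 to 0.85 for SIRT1, -0.39 to -0.31 for SIRT2, 0.06 to 0.20 for SIRT3, -0.91 to -0.53 for SIRT4, -1.40 to -1.29 for SIRT5, -0.34 to -0.19 for SIRT6 and -0.18 to -0.08 for SIRT7, and SIRT4 lost its call without siKMT9a replicate 3. The cause of these changes was not tested. The same replicate number did not pair samples (correlations of deviations -0.07, 0.02 and -0.07), and the replicate block alone changed no sirtuin's call, giving 0.81 for SIRT1, -0.35 for SIRT2, 0.14 for SIRT3, -0.70 for SIRT4, -1.36 for SIRT5, -0.25 for SIRT6 and -0.15 for SIRT7. Depth limited SIRT4 most, at 15.5 to 41.5 counts a sample.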
